A study of Mus musculus with 4 samples.

Results

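The interleukin 1 family and its receptors were followed through 10 genes in adherent cells grown from mouse spleen: the cytokines Il1a, Il1b, Il18 and Il33, the antagonist Il1rn, the receptor chains Il1r1, Il1r2, Il1rap and Il1rl1, and the inflammasome sensor Nlrp3. Members were chosen by exact gene symbol, which gave 18 of the 45037 probe sets on the array and all 10 genes. Cells came from spleen pieces of C57BL/6J mice, with a spleen cut into 6 pieces that were cultured in RPMI 1640 medium with 5% fetal bovine serum; the age of the mice is not given in the sources used here. Splenic adherent cells that had grown into compact colonies (SACCs) were compared with control cells, which were adherent but formed a monolayer, on 2 arrays each. SACC replicate 1 had been moved to a serum-free medium for mouse embryonic stem cells (ES medium) when colonies began to form, at about 7 to 14 days. SACC replicate 2 and both controls were in plain medium. Each SACC array has a reference control in the labels, which gives an ES pair (replicate 1 of each group) and a plain pair (replicate 2 of each group). In the ES pair cell state and medium differed together and cannot be told apart. The labels do not say whether replicates were different animals or cultures, so p-values cover only the spread among these 4 samples and that spread may be technical. It also includes the difference in medium between the SACC arrays.

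Interleukin 1 alpha and beta act through the receptor Il1r1 together with the accessory protein Il1rap, which is shared with the interleukin 33 receptor Il1rl1 (also called ST2). Il1rn occupies Il1r1 without signalling, and Il1r2 is a decoy that binds interleukin 1 but lacks the signalling domain inside the cell. Interleukin 1 beta and interleukin 18 are made as precursors that caspase 1 cleaves once a sensor such as Nlrp3 has assembled an inflammasome, whereas interleukin 33 is a nuclear protein released from damaged cells. In the spleen, macrophages are a known source of interleukin 1 beta, and reticular fibroblasts a known source of interleukin 33.

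Values are log2 expression per probe set, and ratios are log2 differences, SACC minus the control of the same pair (1 means 2-fold higher in SACCs). Array medians lay between 4.34 and 4.59. The 2 pairs were deposited in separate tables that appear normalized separately, so levels set side by side across pairs carry an offset of up to 0.32. The labelled cells were checked against markers. All 12 macrophage markers were lower and all 10 fibroblast markers higher in SACCs in both pairs, with median ratios of -2.08 and -2.04 for macrophage markers and of 1.4 and 1.7 for fibroblast markers (the value of the ES pair comes first throughout). All 22 of these markers lay above the array median on all 4 arrays, so both kinds of RNA were present in SACCs and controls alike. In such mixed samples fewer cells of a type and less RNA per cell cannot be told apart.

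Receptor genes and Il33 were higher in colonies, Nlrp3 was lower, and Il1b was lower in the ES pair but differed little in the plain pair. Il1rn was lower in the plain pair, and in the ES pair its sign depended on the probe set: 1 of 3 was higher and the others lower. Of the 10 genes, each read on its brightest probe set, 6 were higher in SACCs in both pairs (Il1a, Il1r1, Il1r2, Il1rap, Il1rl1 and Il33) and 2 were lower in both (Il18 and Nlrp3), against 30.4% and 34.7% of all 19747 genes. At least 2-fold in both pairs, 3 were higher (Il1r1, Il1rl1 and Il33), where 3.38% of all genes were, and 1, Nlrp3, was lower, where 2.68% were. Within the ES pair 5 of the 10 were at least 2-fold higher and 2 lower (6.51% and 4.09% of all genes), and within the plain pair 3 and 2 (6.01% and 5.19%). The median ratio of the 10 genes was 0.66 (ES pair) and 0.73 (plain pair), beside -0.01 and -0.02 over all genes. Limma was fitted over both pairs with the pair as a term, and its p-values were adjusted across the whole array by the Benjamini-Hochberg method. At an adjusted p of 0.05, 1 of the 18 probe sets passed, that of Il1r1, which was higher. Of all probe sets, 0.642% were called higher. None was called lower (0.662% of all); at an unadjusted limma p under 0.05, 5 of the 10 genes were higher and 2 lower, where 20.9% of all genes passed in either direction. The fit has 1 residual degree of freedom, the difference between the ratios of the 2 pairs. That difference also holds the medium of SACC replicate 1, so the standard errors and p-values include it. Most differences below are therefore given as the values of 2 pairs.

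**Figure D1:**
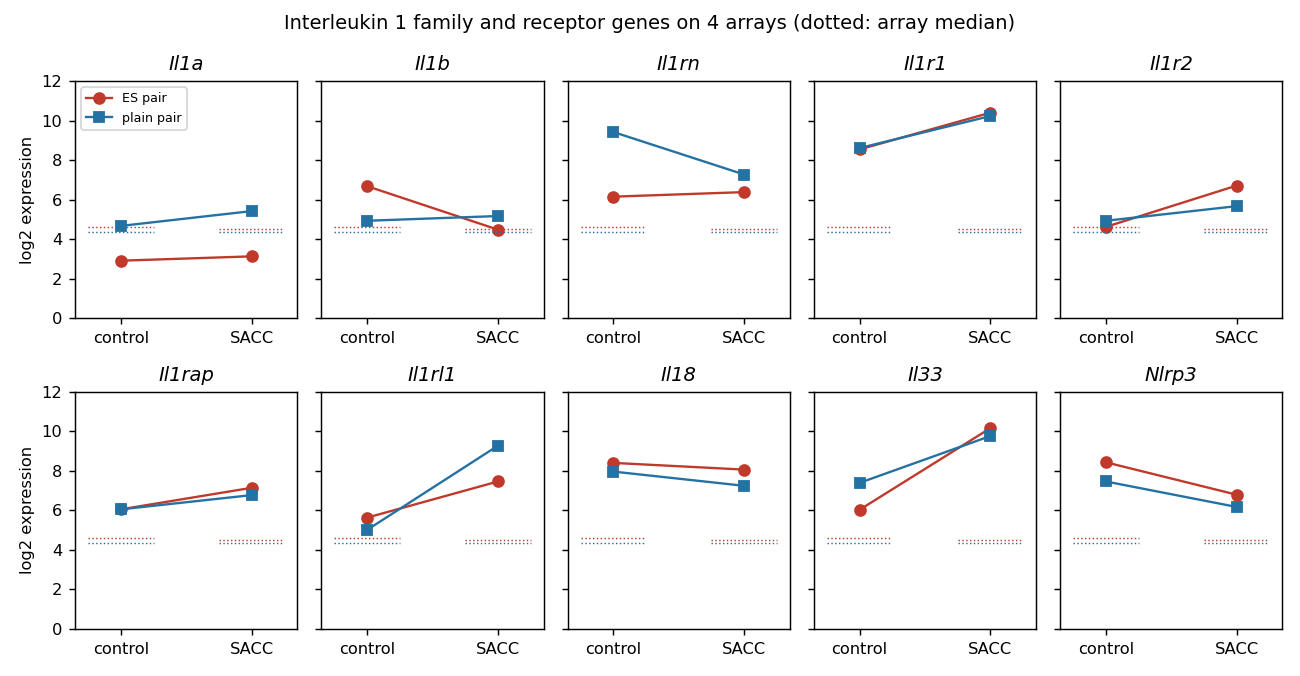
Log2 expression of the 10 genes (vertical axis) in the control and SACC arrays (horizontal axis), 1 panel per gene and 1 line per pair, with dotted lines at each array's median. Lines of Il1r1, Il1r2, Il1rap, Il1rl1 and Il33 slope up in both pairs, that of Nlrp3 slopes down in both, and those of Il1b and of Il1rn (brightest probe set) differ in slope between the pairs.

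The receptor for interleukin 1 rose in SACCs. Il1r1, the signalling chain, lay at 10.4 and 10.23 on the SACC arrays and at 8.54 and 8.61 on the controls. Both SACC arrays lay above both controls, as in 18.3% of all genes. The levels within each group were closer than the offset between the tables. Il1r1 rose by 1.74 ± 0.17 (SE, n = 2 pairs; 3.34-fold; limma adjusted p = 0.0487), with ratios of 1.86 and 1.62. The call lay just inside the threshold and was lost when arrays were centred on their medians (adjusted p = 0.0642) or the pair was left out of the fit (0.162), in a range of 0.00643 to 0.679 over the alternatives. A further Il1r1 probe set was dim, between 1.66 and 2.1, in the lowest 4% of each array, and had ratios of -0.27 and -0.22.

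Il1rap, the accessory chain, lay at 7.14 and 6.77 in SACCs and at 6.05 in both controls. Its ratios of 1.09 and 0.72 had the same sign but did not pass (mean 0.9 ± 0.18, SE, n = 2 pairs; limma adjusted p = 0.124). Of its 5 probe sets all were higher in the ES pair, and 3 were higher, 1 lower and the remaining one equal in the plain pair. The lower and the equal one lay below the median of every array. Il1r2, the decoy receptor, lay at 6.71 and 5.67 in SACCs against 4.62 and 4.93 in controls. Its ratios were 2.09 and 0.74 (mean 1.42 ± 0.37; limma adjusted p = 0.19), and the control value of the ES pair was close to its array's median of 4.59. Decoy and signalling receptor RNA were therefore both higher in SACCs of either pair, with the larger Il1r2 ratio in the ES pair.

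Il1r1 and Il1r2 are neighbours, while Il1rap lies on chromosome 16. In the RefSeq annotation of GRCm38.p6, 6 receptor genes of the family follow one another on chromosome 1 in the order Il1r2, Il1r1, Il1rl2, Il1rl1, Il18r1 and Il18rap. Of the 6, 5 had both SACC arrays above both controls, a pattern found in 18.3% of all genes. Il1rl2, the receptor chain for interleukin 36, lay at 7.23 and 6.86 against 4.89 and 5.64, with ratios of 2.34 and 1.22 (limma adjusted p = 0.105). Il18rap, the accessory chain for interleukin 18, had ratios of 0.31 and 1.17. Il18r1, the other chain of that receptor, lay below the median of every array, between 2.25 and 2.48, with ratios of -0.1 and 0.1. Away from this row, the inhibitory receptor Sigirr had ratios of -0.44 and -0.33, and Il1rapl2, a related receptor gene below the median of every array, had -0.12 and 0.09.

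Interleukin 33 and its receptor had the largest SACC minus control ratios among the 10 genes when averaged over both pairs. In the ES pair alone Il1rl1 (1.83) lay below Il1r2 (2.09) and Il1r1 (1.86). Il33 lay at 10.16 and 9.76 in SACCs and at 6.03 and 7.39 in controls. Both SACC arrays were above both controls, as in 18.3% of all genes. Within the pairs Il33 was 17.5-fold (ES pair) and 5.17-fold (plain pair) higher in SACCs. The mean ratio was 3.25 ± 0.47 (SE, n = 2 pairs) and did not pass (limma adjusted p = 0.0735), with ratios of 4.13 and 2.37. With quantile normalization over the 4 arrays limma's adjusted p was 0.0266, the lowest of a range up to 0.673 over the alternatives. Fibroblast markers were higher in both pairs too. Their median ratios were 1.4 (ES pair) and 1.7 (plain pair). Their summed log2 level was 119 and 115.6 in SACCs against 104.7 and 98.4 in controls. In limma 3 of 10, each read on its brightest probe set, rose, where 0.642% of all probe sets did, dim ones included. Col1a1, a chain of type I collagen, rose by 2.3 ± 0.16 (SE, n = 2 pairs; adjusted p = 0.0476), and the surface protein gene Thy1 had the lowest mean, with ratios of 0.51 and 1.1. Of 6 mesothelial markers 5 were higher and 1 was lower in both pairs (medians 1.31 and 1.38), against 30.4% and 34.7% of all genes. Only 1 of the 6 lay above the median of every array. The part of fibroblast or mesothelial RNA in the Il33 ratios was not tested.

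Il1rl1 had its larger ratio in the other pair. On its brighter probe set it lay at 7.46 and 9.27 in SACCs against 5.63 and 5.01 in controls. This is 3.56-fold higher for the ES pair and 19.2-fold for the plain pair (ratios 1.83 and 4.26; mean 3.04 ± 0.63, SE, n = 2 pairs; limma adjusted p = 0.129). The dimmer probe set ran the same way with smaller ratios, 0.52 and 1.55, from 6.11 and 6.58 against 5.59 and 5.03. Il1rl1 is known to give a membrane receptor and a soluble form that captures interleukin 33. The files do not say which form each probe set detects, so the forms were not separated.

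Il1rl1 is also a marker of mast cells, so 8 mast cell and basophil genes were set beside it. Their median ratio was -0.2 (ES pair) and 0.97 (plain pair), and their summed log2 level was 33.2 and 37.6 in SACCs against 32 and 29.1 in controls. Of the 8, 3 were higher in both pairs (Mcpt8, Fcer1a and Kit), where 30.4% of all genes were. The other 5 were lower in the ES pair and higher in the plain pair, a pattern not counted over all genes. Mcpt8, a basophil protease, had the highest mean ratio, with ratios of 2.36 and 0.21. It lay at 5.47 and 3.91 in SACCs against 3.11 and 3.7 in controls. Cpa3, a mast cell protease, lay at 5.84 and 7.02 in SACCs against 6.28 and 4.63 (ratios -0.44 and 2.39), and the chymase gene Mcpt4 had ratios of -0.61 and 1.94. Kit, the stem cell factor receptor, had ratios of 0.19 and 0.95, and the tryptase gene Tpsb2 had -0.27 and 0.55. Fcer1a and Ms4a2, chains of the high-affinity IgE receptor, lay below the median of every array, with ratios of 0.55 and 0.99 for Fcer1a and of -0.12 and 0.14 for Ms4a2. Mcpt8, Kit and Mcpt4 were dim too and exceeded the array median on 1 array each. Of the 8 only Cpa3 did so on all 4 arrays. None of the 8 passed limma over both pairs. At an unadjusted limma p under 0.05, 1 was higher, where 20.9% of all genes passed in either direction. The part of mast cell and basophil RNA in the Il1rl1 ratios was not tested.

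Both genes have 2 annotated start sites in the RefSeq promoter table (GRCm38.p6). The 250 bases before each are shown because Il33 and Il1rl1 were higher together; in mice, the upstream start of Il1rl1 is known from mast cells and the downstream one from fibroblasts. Capitals mark matches, on either strand, to 5 motifs. They are the GATA motif AGATAA, the C/EBP motif TTGCNNAA and the NF-kB consensus. The PU.1 motif GAGGAA and the AP-1 motif TGANTCA were searched as well. No 2 matches overlapped in the windows shown. All sequences run 5′ to 3′ toward the start, and all lie on the plus strand.
Il1rl1, upstream start, chr1:40429320-40429569: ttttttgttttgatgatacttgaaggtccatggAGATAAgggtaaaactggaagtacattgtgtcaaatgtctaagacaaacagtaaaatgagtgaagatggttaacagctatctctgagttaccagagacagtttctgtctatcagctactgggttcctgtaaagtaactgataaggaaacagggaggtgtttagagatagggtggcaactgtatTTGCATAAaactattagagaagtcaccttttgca
Il1rl1, downstream start, chr1:40439379-40439628: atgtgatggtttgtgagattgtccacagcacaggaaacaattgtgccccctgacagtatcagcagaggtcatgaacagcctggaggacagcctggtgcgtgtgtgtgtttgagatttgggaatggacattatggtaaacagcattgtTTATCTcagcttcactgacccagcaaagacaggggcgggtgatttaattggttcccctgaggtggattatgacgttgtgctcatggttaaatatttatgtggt
Il33, upstream start, chr19:29924863-29925112: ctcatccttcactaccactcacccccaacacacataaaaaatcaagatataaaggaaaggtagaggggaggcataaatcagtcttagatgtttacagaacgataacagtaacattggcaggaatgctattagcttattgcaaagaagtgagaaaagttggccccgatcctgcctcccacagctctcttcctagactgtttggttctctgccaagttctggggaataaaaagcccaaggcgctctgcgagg
Il33, downstream start, chr19:29945540-29945789: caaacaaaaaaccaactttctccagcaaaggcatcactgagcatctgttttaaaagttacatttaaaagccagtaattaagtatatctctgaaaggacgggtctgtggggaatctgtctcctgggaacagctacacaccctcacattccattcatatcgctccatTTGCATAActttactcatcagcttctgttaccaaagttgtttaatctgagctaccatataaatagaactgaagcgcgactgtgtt
Each Il1rl1 window holds a GATA match, found in 9.99% of the 32851 windows of the table, and the upstream one a C/EBP match, found in 9.56%. The downstream Il33 window holds a C/EBP match with the same letters, and the upstream one none of the 5 motifs. Whether any of these letters is bound in these cells was not measured, and the arrays do not tell the starts apart.

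Il1b and Il1rn, agonist and antagonist at the same receptor, had their large ratios in different pairs. Il1b lay at 4.48 in SACCs and 6.68 in the control of the ES pair, and at 5.17 and 4.93 in the plain pair. It was therefore 4.59-fold lower in SACCs of the ES pair and 1.18-fold higher in those of the plain pair (ratios -2.2 and 0.24). The SACC value of the ES pair lay just below its array's median of 4.52, and the ratio of the plain pair was small. On its brightest probe set Il1rn lay at 6.38 in SACCs and 6.15 in the control of the ES pair, and at 7.27 and 9.42 in the plain pair. Its ratios were 0.23 and -2.15, so it was 4.44-fold lower in SACCs of the plain pair. The ratios of Il1b and of Il1rn lay 2.44 and 2.38 apart on the log2 scale, in opposite directions. Ratios at least 4-fold apart were found in 0.344% of all genes with the plain pair higher, as for Il1b and Il1rl1, and in 0.724% with the ES pair higher, as for Il1rn. With 1 array for each group and pair this difference could not be tested. Over both pairs neither gene passed (limma adjusted p = 0.531 for Il1b and 0.53 for Il1rn).

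The other Il1rn probe sets had ratios of -2.3 and -2.53 in the plain pair. In the ES pair they were lower too, at -0.1 and -0.4, against 0.23 for the brightest, so 2 of the 3 probe sets were lower in SACCs of both pairs. Il1rn also has several starts, giving secreted and intracellular forms, which the files do not separate.

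**Figure D2:**
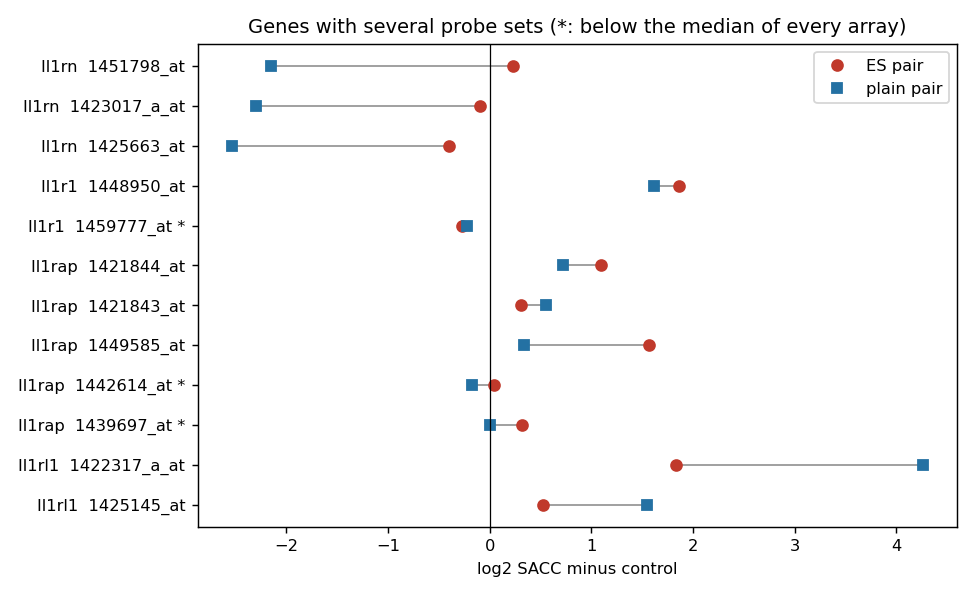
Log2 SACC minus control (horizontal axis) for each probe set of the 4 genes with several (vertical axis), circles for the ES pair and squares for the plain pair. The 3 Il1rn probe sets lie below -2 in the plain pair and near 0 in the ES pair, and both Il1rl1 probe sets are higher in both pairs with the larger ratio in the plain pair.

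The controls, which share the label of plain medium, stood apart in these genes. After quantile normalization over the 4 arrays, Il1rn was 9.85-fold higher in the control of the plain pair than in that of the ES pair, and Il1b was 3.12-fold lower. The other Il1rn probe sets were 37.7-fold and 5.78-fold higher. In the ES pair the first of these was dim, at 4.54 in SACCs and 4.64 in the control, near the array medians. Il33 was 2.7-fold higher in the control of the plain pair than in that of the ES pair. Il1r1 and Il1rap differed by 1.07-fold on their brightest probe sets. Among the other Il1rap probe sets the largest difference between the controls was 2.21-fold. At least 4-fold differences between the controls were found in 0.749% of all genes, and among the 10 in Il1rn and Il1a. Il1a, the membrane and nuclear agonist, lay at 3.13 and 2.91 in the ES pair, below the array medians, and at 5.42 and 4.67 in the plain pair. Its ratios of 0.22 and 0.75 were small beside the difference between the pairs, which was 4.04-fold for the controls and 5.26-fold for the SACC arrays (at least 4-fold in 0.658% of all genes). These are comparisons across tables with 1 array on each side, without a test.

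Neutrophils carry Il1rn, Il1r2 and Il1b RNA, so 8 neutrophil markers were set beside them. Their median ratio was 1.86 (ES pair) and -0.76 (plain pair), and their summed log2 level was 55.8 and 59.3 in SACCs against 42 and 64.1 in controls. They did not move as one: 2 were higher in both pairs (Mmp9 and Camp) and 2 lower in both (Csf3r and Cxcr2). Among all genes 30.4% were higher and 34.7% lower in both. The other 4 (S100a8, S100a9, Ngp and Mmp8) were higher for the ES pair but lower for the plain one, a pattern not counted over all genes. In limma Camp, an antimicrobial peptide gene, rose by 1.58 ± 0.16 (SE, n = 2 pairs; adjusted p = 0.0487). Csf3r, the receptor for granulocyte colony-stimulating factor, fell by 1.54 ± 0.16 (adjusted p = 0.0495). The gelatinase gene Mmp9 had ratios of 2.29 and 1.03. The calcium-binding protein gene S100a9 lay at 3.35 in the control of the ES pair and at 10.53 in that of the plain pair, and Ngp, a granule protein gene, at 3.74 and 9.13. The controls lay closer together in Camp (4.82 and 6.65), Csf3r (6.35 and 7) and Mmp9 (7.59 and 7.81). The chemokine receptor gene Cxcr2 lay below the median of every array, with ratios of -0.33 and -0.28. The part of neutrophil RNA in these ratios was not tested.

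Nlrp3 was lower in SACCs of both pairs. It lay at 6.79 and 6.17 in SACCs and at 8.43 and 7.46 in controls. Both SACC arrays lay below both controls, as in 19.5% of all genes. The ratios were -1.64 and -1.29, 3.12-fold and 2.45-fold lower (mean -1.46 ± 0.18, SE, n = 2 pairs; limma adjusted p = 0.0587, 0.0238 after quantile normalization, and 0.0112 to 0.999 over the alternatives). Il18 lay at 8.06 and 7.24 in SACCs and at 8.4 and 7.96 in controls, so the groups overlapped across tables. Its ratios were -0.34 and -0.72 (limma adjusted p = 0.281). The interleukin 18 binding protein Il18bp, a secreted inhibitor, had ratios of 0.29 and -0.37.

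Of 12 further measured genes of the inflammasome and of cytokine release, 8 were lower in both pairs and 1 was higher in both, against 34.7% and 30.4% of all genes. The median ratios were -0.45 and -0.78, and none passed limma over all probe sets. At an unadjusted limma p under 0.05, 5 of the 12 were lower and 0 higher, where 20.9% of all genes passed in either direction. Pycard, the adaptor that joins Nlrp3 to caspase 1, had ratios of -0.73 and -1.88. Casp1 had ratios of -0.58 and -1.85, and Aim2, a sensor of DNA, -0.87 and -1.79, although Aim2 exceeded the array median only in the control of the plain pair. The channel gene Panx1 had ratios of 0.17 and 0.24, and the apoptotic caspase Casp8 0.02 and -0.56. Gsdmd, whose product forms the pore through which interleukin 1 beta leaves the cell, had ratios of 0.05 and -0.59. Macrophage markers had larger falls, with medians of -2.08 and -2.04. All 12 were at least 2-fold lower in both pairs, against 0 of the 12 inflammasome genes (2.68% of all genes). Their summed log2 level was 110.2 and 116.2 in SACCs against 134.5 and 139.6 in controls. In limma 6 of the 12 markers, each read on its brightest probe set, fell, where 0.662% of all probe sets did, dim ones included. Csf1r, the receptor for colony-stimulating factor 1, fell by 1.75 ± 0.17 (SE, n = 2 pairs; adjusted p = 0.0482). The ratios of Nlrp3 were smaller in size than the median of the macrophage markers in both pairs. They lay within the range of those markers, of which C1qa had ratios of -1.64 and -1.18. The part of macrophage RNA in the Nlrp3 ratio was not tested.

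The 250 bases before a start of the called gene Il1r1 and of the lower gene Nlrp3 are shown for comparison, with capitals as above. Both lie on the plus strand of GRCm38.p6.
Il1r1, downstream start, chr1:40266336-40266585: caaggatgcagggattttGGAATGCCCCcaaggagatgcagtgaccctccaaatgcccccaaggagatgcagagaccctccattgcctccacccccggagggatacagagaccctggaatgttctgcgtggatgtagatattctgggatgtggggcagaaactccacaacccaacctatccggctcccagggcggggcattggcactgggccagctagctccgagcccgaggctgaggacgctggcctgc
Nlrp3, upstream start, chr11:59541319-59541568: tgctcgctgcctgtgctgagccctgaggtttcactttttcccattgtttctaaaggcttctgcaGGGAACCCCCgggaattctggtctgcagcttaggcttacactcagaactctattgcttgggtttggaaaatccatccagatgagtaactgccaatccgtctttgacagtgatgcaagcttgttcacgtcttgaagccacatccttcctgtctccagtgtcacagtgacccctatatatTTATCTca
Each holds an NF-kB consensus match, as did 7.25% of all windows and 2 of the 16 windows of the 10 genes. The Nlrp3 window also holds a GATA match close to the start. These windows are shown because no others of the 16 hold the consensus. The window before the other Il1r1 start holds a C/EBP match and that before the other Nlrp3 start 3 PU.1 matches, and neither holds the NF-kB consensus. At least 1 PU.1 match was found in 23.3% of all windows and in 2 of the 16.

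**Figure D3:**
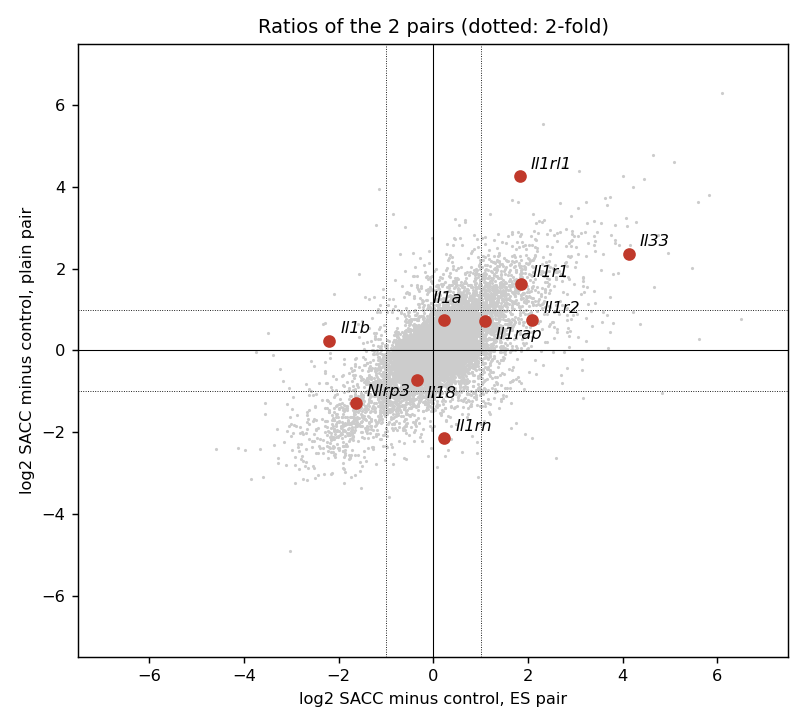
Log2 SACC minus control in the ES pair (horizontal axis) and the plain pair (vertical axis) for all 19747 genes (grey points) and the 10 genes of the family (labelled), with dotted lines at 2-fold. Il33, Il1rl1 and Il1r1 lie beyond 2-fold in the upper right, Nlrp3 in the lower left, and Il1b and Il1rn near the axes on opposite sides.

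Genes downstream of the receptors were read from fixed lists. Of 14 genes of receptor signalling, 8 were lower in both pairs and 2 higher (34.7% and 30.4% of all genes), with medians of -0.3 and -0.26, and none passed limma. At an unadjusted limma p under 0.05, 2 of the 14 were lower, a share below the 20.9% of all genes. Irak4, the first kinase of the receptor complex, was the lowest, at 5.81 and 5.42 in SACCs against 7.28 and 6.85 in controls (ratios -1.47 and -1.43; limma adjusted p = 0.0518). Peli2, a ubiquitin ligase acting on the Irak kinases, had ratios of -0.89 and -1. The kinase gene Map3k7 (0.09 and 0.72) and the ubiquitin-conjugating Ube2n (0.55 and 0.07) were the highest. The adaptor Myd88 had ratios of -0.38 and -0.45. Of 11 NF-kB genes 7 were lower in both pairs and 1 higher, with medians of -0.52 and -0.03, and none passed limma. At an unadjusted limma p under 0.05, 3 of the 11 were lower, near the 20.9% of all genes. Rel, a subunit abundant in leukocytes, had ratios of -1 and -1.07, and Ikbkb, the activating kinase, -0.8 and -0.84. The inhibitor Nfkbia had ratios of -0.33 and 0.29, and Chuk 0.15 and 0.14.

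Genes that interleukin 1 is known to induce in stromal cells had a median near 0 in the ES pair and above 0 in the plain pair. In both pairs 10 of the 23 were higher and 5 lower, against 30.4% and 34.7% of all genes, and the median ratio was -0.02 (ES pair) and 1.07 (plain pair). At least 2-fold higher were 5 of them for the ES pair and 13 for the plain pair, where 6.51% and 6.01% of all genes were. The neutrophil-attracting chemokine gene Cxcl5 rose by 3.72 ± 0.32 (SE, n = 2 pairs; limma adjusted p = 0.0476) and the matrix protease gene Mmp3 by 3.44 ± 0.25 (0.0476). Mmp3 lay at 11.91 and 11.12 in SACCs against 8.08 and 8.06. Lowest were the collagenase gene Mmp13 (-0.94 and -3.58) and the chemokine gene Cxcl2 (-2.97 and -1.14), which did not pass. Cxcl1, a related chemokine gene, had ratios of 0.56 and 2.76. Ptges, an enzyme of prostaglandin E2 synthesis, had ratios of 1.34 and 2.51, and Nfkbiz, an NF-kB cofactor induced by interleukin 1, -0.33 and 1.5. Other stimuli induce these genes too, and the list was written with part of its values known, so its counts are a description. The 6 other ligand and antagonist genes of the family had median ratios of -0.07 and -0.08, with none past limma (0 at an unadjusted p under 0.05). Of the interleukin 36 branch, Il36a, Il36b and the antagonist Il36rn lay below the median of every array. The agonist Il36g lay above the median on 3 of the 4 arrays, at 4.19 and 4.51 in SACCs against 4.83 and 4.7 in controls. Its ratios of -0.64 and -0.19 gave the lowest mean of the 6, ahead of Il1f10 (-0.22 and 0.06).

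**Figure D4:**
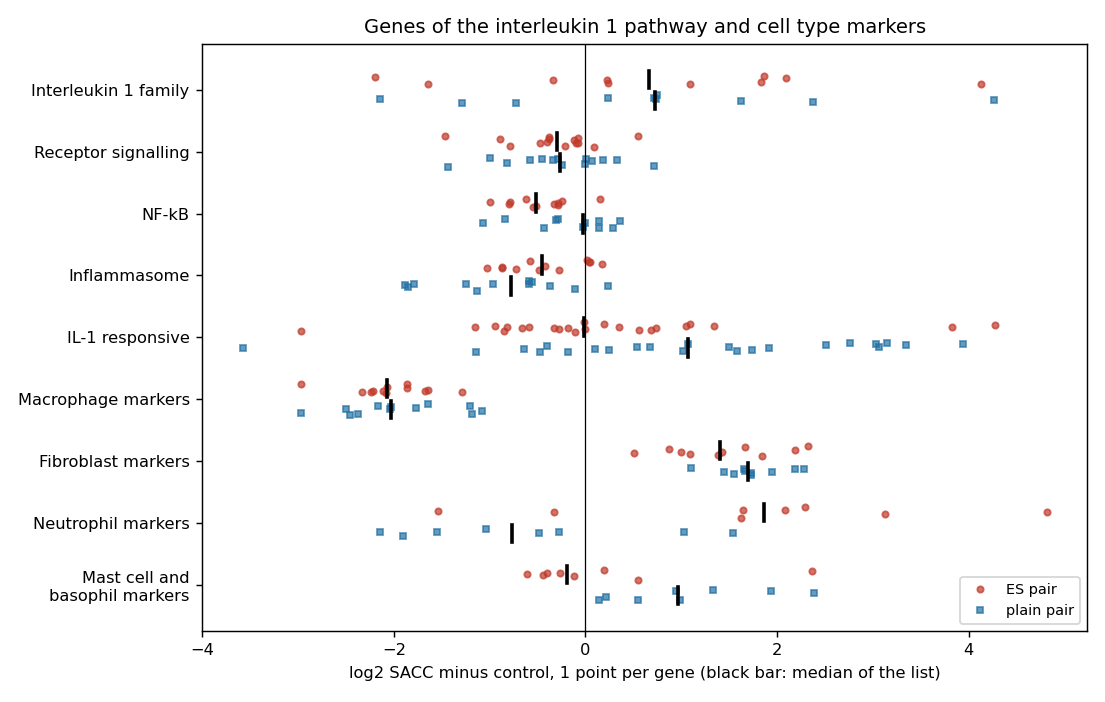
Log2 SACC minus control (horizontal axis), 1 point per gene, for the interleukin 1 family, 4 lists of its pathway and 4 lists of cell type markers (vertical axis), circles for the ES pair and squares for the plain pair, with black bars at list medians. Macrophage markers lie below 0 and fibroblast markers above 0 in both pairs, and interleukin 1 responsive genes have medians of -0.02 and 1.07.

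Genes of most similar pattern were found by the distance between the 2 ratios among 11681 genes above the median probe set. Nearest to Il33 was Tfpi2, an inhibitor of proteases in the matrix (4.18 and 2.26, distance 0.12), and nearest to Il1r1 were Ass1, an enzyme of arginine synthesis (1.88 and 1.66, distance 0.04), and Emilin1, a glycoprotein of elastic fibres (distance 0.05). Il1rn lay nearest to Clec5a, a lectin receptor of myeloid cells (0.15 and -2.06, distance 0.12). Il1rl1 and Il1b had no close match: their nearest genes were Sod3, an extracellular superoxide dismutase, at a distance of 0.61, and Gdf3 at 0.31. With 2 ratios per gene, near matches are common where genes are dense, as for Nlrp3, whose nearest gene Sft2d2 had the same ratios to 2 decimals.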

How the data were processed

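RNA of 2 SACC and 2 control samples was hybridised to Affymetrix arrays. Per the labels' protocols, biotinylated cRNA was made by the array maker's method. The authors deposited log2 expression per probe set in 2 tables, each holding a SACC array and its reference. The submitters' processing notes name Transcriptome Analysis Console. Summarisation, normalization and build: not given in the sources used here. A deposited table of all 4 arrays held identical values. Precision is limited by the number of arrays. Pearson correlations between arrays were 0.946 to 0.972, so none was a duplicate.

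Limma 3.58.1 (R 4.3.3; lmFit, eBayes) was fitted to all 45037 probe sets with group and pair, Benjamini-Hochberg adjusted; prior degrees of freedom were 2.97. The pairing comes from the labels and, with 2 pairs, was not tested on the values. Each ± is limma's moderated standard error. A gene was read on its probe set with the highest mean; 1236 probe sets with several symbols and 7628 with none were not named. Named from each pathway list and from the mast cell and neutrophil markers were the 2 highest and 2 lowest mean ratios, and from the fibroblast markers the highest and the lowest; other list genes named (Myd88, Casp1, Gsdmd, Cxcl1, Ptges, Nfkbiz, Csf1r, Mcpt4, Ngp and others) were chosen after their values were seen. Members, lists and motifs were chosen with earlier results of these data known. Il36a, Il36b, Il36g and Il36rn appear in the files as Il1f6, Il1f8, Il1f9 and Il1f5. All 10 members matched the RefSeq promoter table. The procedure was tested on simulated data. Alternatives covered the pair term, centring, quantile normalization, a filter on dim probe sets, eBayes settings, the threshold, probe sets per gene and leaving out each array.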

Additional observations from a re-analysis of the deposited data

Results flagged for a closer look

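Il1b and, on its brightest probe set, Il1rn had ratios that differed in sign between the pairs. For Il1b the ratios were -2.2 (ES pair) and 0.24 (plain pair), a difference of 2.44 (plain minus ES). For Il1rn the ratios were 0.23 and -2.15, a difference of -2.38. The positive ratio of each gene was small. Each pair rests on 1 array per group, so the differences were not tested. For Il1rn the sign in the ES pair depended on the probe set, with ratios of 0.23, -0.1 and -0.4.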

How the results depend on the processing

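The number of probe sets past limma's threshold over both pairs was 587 as reported, and of the 10 genes 1. Without the pair in the fit (no replicate block) the counts were 0 and 0 (3497 probe sets and 6 genes at an unadjusted limma p under 0.05), and with arrays centred on their medians 0 and 0 (7405 and 6). They were 2045 and 3 with quantile normalization, 1326 and 3 without probe sets dimmer than the median one, 898 and 1 with an eBayes trend, 2623 and 2 with robust eBayes, 1027 and 3 with the highest probe set per gene, 909 and 2 with probe sets averaged by gene, and 2188 and 3 at an adjusted p of 0.10. Leaving out each array in turn gave 0 and 0 every time in limma (2264 to 3535 probe sets and 4 to 6 genes unadjusted); these fits drop the pair and assume that the lone array of a group varies like the other group.

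At an adjusted p under 0.05, Il1r1 was called in 6 of 13 alternatives, Nlrp3 in 5 and Il33 in 4, and no other member in any. For Il1r1 the 6 include the main fit read at a threshold of 0.10, which repeats its main call. With all 4 arrays kept, limma's adjusted p ranged from 0.00643 to 0.162 for Il1r1. It ranged from 0.0112 to 0.45 for Nlrp3 and from 0.0266 to 0.184 for Il33. With the mean of its probe sets Il1r1 had a mean ratio of 0.75 (adjusted p 0.0731), since its dim probe set then counts equally. The mean ratio of Il1a reversed to -0.39 without control replicate 1 and to -0.66 without SACC replicate 2 (range -0.66 to 1.63 over the 4 arrays left out), and that of Il1rn to 0.68 without control replicate 2 (range -2.6 to 0.68); the cause was not tested. Counts of probe sets at least 2-fold different became 1648 (ES pair) and 1750 (plain pair) with probe sets averaged by gene, and those at least 4-fold apart between pairs 161, with fewer features counted. On those means Il1rl1 had ratios of 1.17 and 2.91. The other members kept both pair ratios within 0.5, except Il1r1 (0.79 and 0.7 on the means). The settings were centring, quantile normalization, the filter on dim probe sets and the mean of probe sets. Much of this was fixed in advance and does not measure stability. Centring shifts all genes of a pair alike, the filter leaves ratios unchanged, and averaging acts only on the 4 genes with several probe sets.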
